A study of Mus musculus with 8 samples.

Results

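The effect of losing Sirt1 was set against the effect of resveratrol in secondary neurospheres, the clusters that neural stem and progenitor cells of the adult mouse hippocampus form when primary clusters are broken up and seeded again. The quantity described is a difference of differences: Sirt1 KO minus WT, less resveratrol minus DMSO, each taken between arrays with the same replicate number. It used all 8 arrays of the series, 2 in each of 4 groups. The genotype arm held WT and Sirt1 KO neurospheres of strain 129/ICR, harvested after 6 days of culture, with replicate 1 from females and replicate 2 from males. The treatment arm held C57BL/6 wild-type neurospheres from males, cultured for 5 days and then given DMSO, the solvent, or resveratrol for 24 hours. The label gives the resveratrol dose as 10 with the unit written as "mm", and that unit could not be settled. All mice were 7 to 9 weeks old. All cultures received EGF, bFGF and heparin, with PDGFbb added in the primary culture only, and none of the groups combined Sirt1 loss with resveratrol. The arms also differ in strain, in the sex of replicate 1 and in culture schedule, and these cannot be told apart from a difference between losing Sirt1 and adding resveratrol. The labels do not say which part of Sirt1 was deleted or in which cells, nor whether replicates were separate animals or cultures, so the spread behind every p-value is that between these arrays and may be technical.

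SIRT1 is an NAD-dependent deacetylase whose substrates include p53, FoxO factors, NF-kB and histones, and in neural progenitors it has been described as a partner of repressors at Notch target genes. Resveratrol is a plant polyphenol often used to raise SIRT1 activity, and it also acts on other enzymes and on the NRF2 antioxidant response. The series title names loss and gain of SIRT1 function, so the question asked here is which genes differed in opposite directions in the 2 arms and which differed in the same direction.

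Promoters are shown for 4 genes on which the results turn: Hes5, with the largest positive difference of differences, Srxn1 and G6pdx, the NRF2-list genes that passed the test, and Me1, which passed in both arms with the same sign. They are RefSeq sequences of build GRCm38.p6, 250 bases before to 50 after the annotated gene start, on the strand of the gene. In Hes5 (chr4:154960673-154960972, plus strand) capitals mark TGGGAA, the core bound by the Notch effector RBPJ, on either strand. In the other promoters capitals mark TGACNNNGC, the antioxidant response element core bound by NRF2, on either strand: Srxn1 at chr2:152105274-152105573 (plus strand), G6pdx at chrX:74428831-74429130 (minus strand) and Me1 at chr9:86695865-86696164 (minus strand, the first of 2 annotated starts).
Hes5: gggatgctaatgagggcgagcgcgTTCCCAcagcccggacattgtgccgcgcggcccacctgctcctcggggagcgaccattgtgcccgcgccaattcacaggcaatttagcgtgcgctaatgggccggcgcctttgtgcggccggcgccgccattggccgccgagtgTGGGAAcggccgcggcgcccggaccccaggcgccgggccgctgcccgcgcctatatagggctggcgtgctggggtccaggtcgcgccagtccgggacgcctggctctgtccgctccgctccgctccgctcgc
Srxn1: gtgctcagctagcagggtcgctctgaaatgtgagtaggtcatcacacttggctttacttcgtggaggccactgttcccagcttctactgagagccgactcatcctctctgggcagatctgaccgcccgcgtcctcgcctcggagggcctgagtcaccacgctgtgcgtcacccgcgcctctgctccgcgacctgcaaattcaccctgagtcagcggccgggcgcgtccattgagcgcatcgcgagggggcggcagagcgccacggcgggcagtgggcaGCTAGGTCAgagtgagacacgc
G6pdx: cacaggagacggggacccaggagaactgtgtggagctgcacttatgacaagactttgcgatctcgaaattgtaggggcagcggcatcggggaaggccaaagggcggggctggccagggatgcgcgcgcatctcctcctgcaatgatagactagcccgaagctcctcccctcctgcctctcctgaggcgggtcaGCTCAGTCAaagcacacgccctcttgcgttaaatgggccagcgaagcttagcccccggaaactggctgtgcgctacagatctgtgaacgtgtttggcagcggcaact
Me1: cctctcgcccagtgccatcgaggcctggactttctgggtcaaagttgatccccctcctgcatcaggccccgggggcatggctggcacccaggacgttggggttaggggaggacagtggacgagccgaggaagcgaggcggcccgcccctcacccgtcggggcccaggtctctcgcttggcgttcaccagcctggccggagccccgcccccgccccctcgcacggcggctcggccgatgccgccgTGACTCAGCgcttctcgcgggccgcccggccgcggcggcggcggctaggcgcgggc
Hes5 held 2 matches and each of the other promoters 1. Such letters are common, since 25.5% of 27025 mouse promoters of the same length held TGGGAA and 12.5% held TGACNNNGC, so a match is a description and not a bound site. Of genes that passed the test described below and had a listed promoter, 2 of 12 positive and 3 of 15 negative genes held TGGGAA. TGACNNNGC was held by 1 of 12 positive and 3 of 15 negative genes.

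Signals were strong enough on all 8 arrays to call 11681 of the 13306 fitted genes well above background throughout. Replicate 2 arrays were dimmer than replicate 1 arrays in all 4 groups: the 75th percentile of the processed signal was 249 to 377 against 716 to 871. The share of probes well above background ran from 53% in WT replicate 2 to 72.0% in DMSO replicate 1. All values below are log2 signals minus the 75th percentile of their array, called levels, or differences between such levels. Sirt1 itself read 0.17 and 0.18 in WT, 0.42 and -0.06 in Sirt1 KO, 0.11 and 0.10 in DMSO and 0.09 and 0.31 in resveratrol, in the order replicate 1 and replicate 2. Its difference of differences was -0.10 (SE 0.22; limma, adjusted p = 0.892), and that of its second probe was -0.21. In Sirt1 KO minus WT the 2 probes were unlike, at 0.004 for the first and -0.30 for the second, which was also detected on all 8 arrays. After resveratrol they gave 0.10 and -0.10. The deleted part could not be set against the probes, and the genotype is not checked by these values. Markers of neural stem and progenitor cells were well above background on all arrays for 10 of 10 genes and those of oligodendrocyte precursors for 5 of 5. Of the mature oligodendrocyte markers 3 of 5 were, with Mog on 0 arrays. Among microglial markers, 2 of 5 on the array were detected on all 8, and Aif1 and Cx3cr1 on 0. For endothelial markers the count was 0 of 5, and for those of pericytes and fibroblasts 1 of 6. Of the astrocyte markers 5 of 7 were detected on all 8 arrays, with Gfap and Aqp4 on 5 arrays at most. Of the neuronal markers 4 of 6 were.

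The difference of differences passed the test for 42 of 13306 genes (0.316%; limma, with a block for the replicate number in each arm, adjusted p under 0.05): 19 were positive (0.143%) and 23 negative (0.173%). Without the block the count was 0, with 126 genes at an unadjusted p under 0.05. The calls rest on taking differences within replicate numbers. A single block shared by both arms left 1 gene, Hes5, and the slide as a block left 0, with 948 genes at an unadjusted p under 0.05. With the block of each arm, 1600 genes had an unadjusted p under 0.05. Of the 42 genes, 41 had arm means of opposite sign, and the exception was the lactate exporter gene Slc16a3. All 42 had the same sign of the difference of differences within both replicate numbers. The test selects large differences that are alike in both replicates, so these counts follow in part from the choice. Of the 42, 38 had opposite signs in all pairs and probes well above background on all 8 arrays. Over the 11681 genes with such probes the share was 17.1%.

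Each gene that passed was also read in the single arms. Of the 19 positive genes, 11 passed in Sirt1 KO against WT alone, 1 (the glial potassium channel Kcnj10) in resveratrol against DMSO alone, 4 in both and 3 in neither. Of the 23 negative genes, 3 passed in the genotype arm alone, 13 in the treatment arm alone, 1 in both and 6 in neither. In the arms themselves, 48 genes passed in Sirt1 KO against WT (0.361% of 13306), 39 of them higher (0.293%) and 9 lower (0.0676%), and 71 in resveratrol against DMSO (0.534%), 62 of them higher (0.466%) and 9 lower (0.0676%). Passing in 1 arm and not in the other does not show a difference between arms, which the difference of differences tests.

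**Figure D1:**
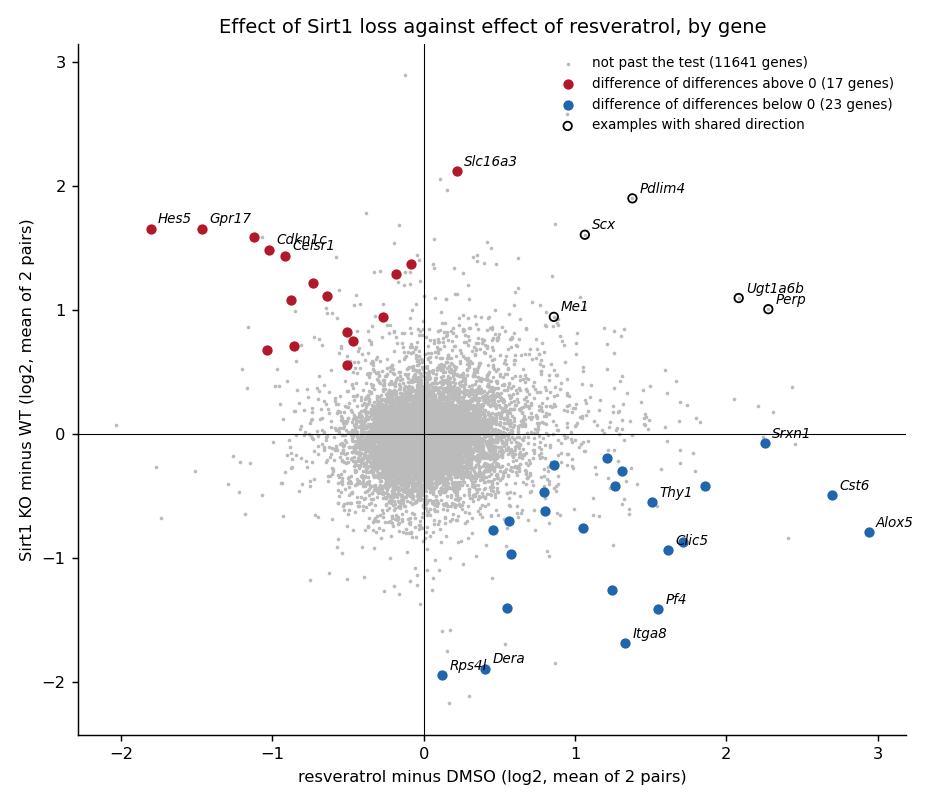
Each point is 1 of 11681 genes well above background on all 8 arrays, with the resveratrol minus DMSO difference (x, log2, mean of 2 pairs) against the Sirt1 KO minus WT difference (y, log2, mean of 2 pairs). Red (17 genes) and blue (23 genes) points passed the test of the difference of differences, open circles are examples with a shared direction, and the red points lie at the upper left, apart from Slc16a3, while the blue points lie at the lower right.

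Hes5, the basic helix-loop-helix repressor that Notch signalling switches on in neural progenitors, stood at the head of the genes higher in Sirt1 KO and lower after resveratrol. Its level was 2.88 and 2.69 in WT and 4.52 and 4.37 in Sirt1 KO, and 5.27 and 5.17 in DMSO against 3.86 and 2.97 in resveratrol. The groups did not overlap in either arm, and the DMSO arrays lay above the Sirt1 KO arrays, so the controls of the arms did not start from the same level. Hes5 rose 3.16-fold in Sirt1 KO (log2 difference 1.66, SE 0.17; limma, adjusted p = 0.012) and fell 3.5-fold after resveratrol (-1.81, SE 0.17; adjusted p = 0.019). The difference of differences was 3.46 (SE 0.24; adjusted p = 0.00538), 3.04 within replicate 1 and 3.89 within replicate 2.

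Mfng, the glycosyltransferase that tunes Notch receptors for their ligands, and Hey1, another Notch target, had the same signs without passing. Mfng read -2.03 and -2.70 in WT, -1.10 and -0.45 in Sirt1 KO, -1.01 and -1.36 in DMSO and -1.97 and -2.54 in resveratrol. Its groups did not overlap in either arm, and the difference of differences was 2.66 (SE 0.41; limma, adjusted p = 0.0537). For Hey1 it was 1.24 (SE 0.23; adjusted p = 0.0894), from 0.69 in the genotype arm and -0.54 in the treatment arm. The Mfng value was smaller with other backgrounds. With normexp on median signals it was 1.08, with 0.39 in Sirt1 KO, and with 1 background per array it was 1.63. Of 33 genes listed for the Notch pathway, 25 were measured, and their median difference was 0.16 in Sirt1 KO and -0.11 after resveratrol (all genes: -0.03 and 0.01). Hes5 alone passed for the difference of differences, and 7 members were positive and 0 negative at an unadjusted p under 0.05 (all genes: 4.36% and 7.67%). Among the 23 members detected on all 8 arrays, 5 were higher in both Sirt1 KO pairs and lower in both resveratrol pairs (6.03% of all genes), and 0 had the reverse pattern (11.1%).

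Some oligodendrocyte lineage genes had the same signs as Hes5, while more of the precursor list was lower in both arms. Gpr17, a receptor of precursors on their way to myelinating cells, read 2.91 and 1.76 in WT, 5.15 and 2.83 in Sirt1 KO, 5.03 and 3.77 in DMSO and 3.86 and 2.00 in resveratrol. WT and Sirt1 KO overlapped over all arrays, as did DMSO and resveratrol, because replicate 1 read higher than replicate 2 in every group, while each pair differed in its arm's direction. The difference of differences of Gpr17 was 3.12 (SE 0.36; limma, adjusted p = 0.0195), and in the single arms the adjusted p was 0.0499 and 0.0603. In bulk arrays a smaller share of a cell type and less RNA per cell cannot be told apart.

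Sox10, a transcription factor of the oligodendrocyte lineage, and C1ql1, a secreted C1q-like protein of precursors, did not pass. Their differences of differences were 1.84 (SE 0.28; limma, adjusted p = 0.0515) and 1.62 (SE 0.28; adjusted p = 0.0758). The Sirt1 KO difference of C1ql1 turned negative (-0.11) with normexp on median signals.

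The 2 oligodendrocyte lists differed in their make-up. Of 20 precursor genes 19 were measured, and 17 were lower in both resveratrol pairs (33% of 11681 genes), while the Sirt1 KO median was -0.08 and the resveratrol median -0.45. Among the 17 precursor genes detected on all arrays, 5 were higher in Sirt1 KO and lower after resveratrol in all pairs (6.03% of all genes). In both arms 8 were lower (12.3% of all genes). In the mature list, with 16 of 21 genes measured, the medians were 0.44 and -0.29. Of 13 detected throughout, 5 had opposite signs in the Hes5 direction (6.03% of all genes). Each list had 7 positive and 0 negative members at an unadjusted p under 0.05 (all genes: 4.36% and 7.67%). Gpr17 was the precursor gene that passed. The mature list's Sirt1 KO median was -0.02 with normexp on median signals.

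Cdkn1c and Celsr1 had the same signs as Hes5. Cdkn1c, the cyclin-dependent kinase inhibitor p57, read 1.24 and 1.39 in WT, 2.71 and 2.90 in Sirt1 KO, 2.77 and 2.08 in DMSO and 2.02 and 0.77 in resveratrol. The groups did not overlap in either arm; it rose by 1.49 in Sirt1 KO (limma, adjusted p = 0.00988) and fell by 1.02 after resveratrol (adjusted p = 0.0391), giving 2.51 (SE 0.21; adjusted p = 0.0057). Celsr1, a cadherin of planar cell polarity, read -0.22 and -0.94 in WT, 1.11 and 0.61 in Sirt1 KO, 1.51 and 0.05 in DMSO and 0.66 and -0.94 in resveratrol. Its genotype groups did not overlap and its treatment groups did; the difference of differences was 2.35 (SE 0.19; adjusted p = 0.00538), and it passed in both arms.

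Of the astrocyte list, Fgfr3, the FGF receptor of astrocytes and radial glia, and the glycolytic enzyme Aldoc passed. Fgfr3 read 1.08 and -0.68 in WT, 2.31 and 0.54 in Sirt1 KO, 2.07 and 0.79 in DMSO and 1.72 and -0.33 in resveratrol. Its groups overlapped across replicates while each pair differed in the Hes5 direction, with a difference of differences of 1.95 (SE 0.25; limma, adjusted p = 0.0316). Of 24 astrocyte genes 23 were measured and 2 of them passed. At an unadjusted p under 0.05, 9 astrocyte genes were positive and 1 negative (all genes: 4.36% and 7.67%). Their medians were 0.36 in Sirt1 KO and 0.08 after resveratrol, against -0.03 and 0.01 for all genes. Among 21 members detected throughout, 7 had the signs of Hes5 (6.03% of all genes) and 6 were higher in both arms (9.39%). Slc4a4, the sodium bicarbonate cotransporter of astrocytes, had a difference of differences of 1.47 (SE 0.27; limma, adjusted p = 0.0894). Its second probe, detected throughout, gave 0.53 in Sirt1 KO and -0.75 after resveratrol. Another probe, not detected throughout, gave 2.12 and 0.31. Ntsr2, a neurotensin receptor, had 1.44 (SE 0.32; limma, adjusted p = 0.129).

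**Figure D2:**
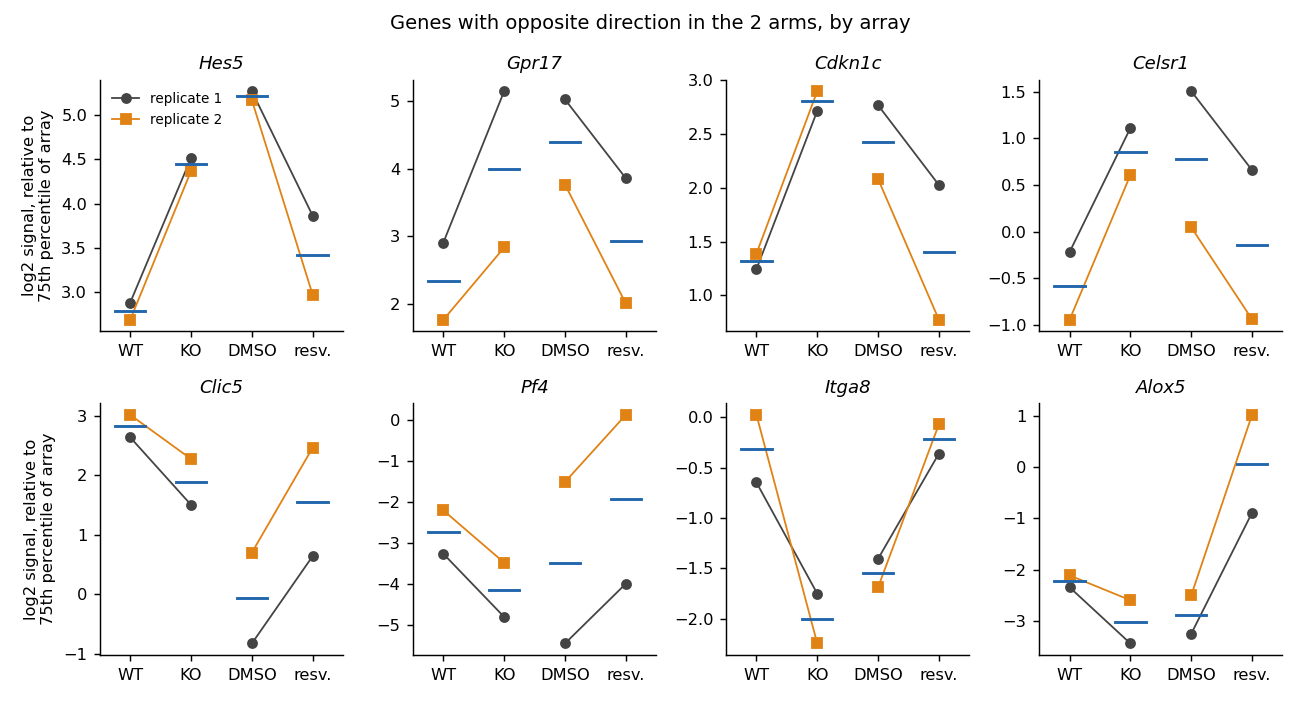
Levels (y, log2 signal relative to the 75th percentile of the array) of 8 genes with opposite direction in the arms, by group (x), with lines joining the arrays of 1 replicate number within an arm and blue bars at the mean of 2 arrays. Hes5, Gpr17, Cdkn1c and Celsr1 go up from WT to KO and down from DMSO to resveratrol in both replicates, and Clic5, Pf4, Itga8 and Alox5 do the reverse.

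The largest negative difference of differences was that of Alox5, the lipoxygenase that starts leukotriene synthesis. It read -2.34 and -2.11 in WT, -3.44 and -2.60 in Sirt1 KO, -3.25 and -2.50 in DMSO and -0.89 and 1.02 in resveratrol. The resveratrol arrays stood above all others, and Sirt1 KO was below WT in both pairs by a smaller amount. Another Alox5 probe, not detected throughout, gave 0.20 in Sirt1 KO and 2.47 after resveratrol. Alox5 rose 7.68-fold after resveratrol (log2 difference 2.94; limma, adjusted p = 0.021), its Sirt1 KO difference of -0.79 did not pass (adjusted p = 0.299), and the difference of differences was -3.73 (SE 0.41; adjusted p = 0.0195).

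Cst6, an inhibitor of cysteine proteases, and Cda, the cytidine deaminase of pyrimidine salvage, followed the same shape. Cst6 read -0.50 and 0.97 in WT, -1.31 and 0.80 in Sirt1 KO, -1.40 and 0.05 in DMSO and 0.85 and 3.20 in resveratrol, with groups separated after resveratrol and overlapping between genotypes. Its difference of differences was -3.19 (SE 0.33; limma, adjusted p = 0.0186), of which 2.70 came from the rise after resveratrol. Cda had -2.58 (SE 0.35; adjusted p = 0.0367), with -0.87 in Sirt1 KO and 1.71 after resveratrol.

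In Itga8, the integrin alpha 8 subunit, both arms contributed. It read -0.65 and 0.02 in WT, -1.75 and -2.25 in Sirt1 KO, -1.40 and -1.69 in DMSO and -0.36 and -0.07 in resveratrol. The groups did not overlap in either arm, and the difference of differences was -3.02 (SE 0.39; limma, adjusted p = 0.0303), although neither arm passed by itself (adjusted p = 0.0576 and 0.0867). Pf4, the platelet factor 4 chemokine, read -3.27 and -2.21 in WT, -4.81 and -3.48 in Sirt1 KO, -5.46 and -1.51 in DMSO and -4.00 and 0.13 in resveratrol. The DMSO replicates lay far apart, and the pairs within each arm gave -1.54, -1.28, 1.46 and 1.64, for a difference of differences of -2.96 (SE 0.34; adjusted p = 0.0195).

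Clic5, a chloride intracellular channel family member, was the negative gene that passed in both arms. It read 2.64 and 3.01 in WT, 1.5 and 2.27 in Sirt1 KO, -0.83 and 0.70 in DMSO and 0.64 and 2.46 in resveratrol. The genotype groups did not overlap, the treatment groups did, and the DMSO arrays lay below every array of the genotype arm. Clic5 had a difference of differences of -2.55 (SE 0.20; limma, adjusted p = 0.00538). AI593442, a gene known by its sequence identifier only, had -2.51 (SE 0.32; adjusted p = 0.0303), with -1.26 and 1.25 in the arms. Sostdc1, a secreted antagonist of BMP and Wnt, had -2.15 (SE 0.44; adjusted p = 0.112) and did not pass.

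The remaining genes that passed followed the same split. On the positive side they were the glial channel Kcnj10 (1.71), Ttyh1 of the tweety family (1.96), the peptide transporter Slc15a2 (1.57), the granule protein Chgb (1.76), the GABA-B receptor subunit Gabbr1 (1.48), the guidance molecule Rgma (1.34), brain glycogen phosphorylase Pygb (1.45), Aldoc (1.22), the sulfurtransferase Tst (1.21) and the metalloproteinase inhibitor Timp3 (1.07). On the negative side were Dera (-2.30), an aldolase of deoxyribose breakdown, Def6 (-2.27), the ribosomal protein S4-like gene Rps4l (-2.07), the surface glycoprotein Thy1 (-2.06), the G protein subunit Gng3 (-1.95), mitochondrial creatine kinase Ckmt1 (-1.81), Angpt2 (-1.69), the phosphatase Dusp4 (-1.61), 1700086L19Rik (-1.54), Pmp22 (-1.42), Erich3 (-1.40), Pdlim2 (-1.26), Crip2 (-1.26) and the POU factor Pou3f1 (-1.23). These genes were listed because they passed. Dera and Rps4l differed almost wholly in the genotype arm, by -1.89 and -1.94, and by 0.41 and 0.12 after resveratrol. Rps4l can share signal with near-identical ribosomal protein genes.

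A pair of the genes that passed were not well above background on 1 of 8 arrays. Cd82, a tetraspanin, read -2.88 and -3.85 in WT and -0.51 and -0.77 in Sirt1 KO, against -1.07 and -2.73 in DMSO and -1.07 and -3.45 in resveratrol, a difference of differences of 3.08 (SE 0.36; limma, adjusted p = 0.0195) that was 1.01 with normexp on median signals and 1.6 with 1 background per array. Has2, a hyaluronan synthase, had 2.61 (SE 0.39; adjusted p = 0.0442), and its value was 0.17 with normexp on median signals. For both genes the genotype arm carried the difference, with 2.72 and 1.96, and the resveratrol differences of -0.36 and -0.65 did not pass.

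By size alone, 46 of 11681 genes (0.394%) differed at least 1.5-fold on average in each arm with opposite signs, the same way in both pairs of an arm: 21 were higher in Sirt1 KO and lower after resveratrol (0.18%) and 25 the reverse (0.214%). Beside genes named above, the first set held Sox10, Mfng, C1ql1, Epha4, Gucy1b2, Lims2, Me3, Mmd2, Ndrg2, Pmel and Rcor2, and the second included Ltb4r1, Cryab, Ache, Synpr, Rab3b and Slc2a6. Of the 46 genes, 18 also passed the test of the difference of differences, which is built from the same values. The gene just inside the 1.5-fold limit, Me3, had 0.59 as the smaller of its 2 absolute differences, and Sp110, just outside, had 0.58. Without a limit on size, 2001 genes (17.1%) had opposite signs and 2530 (21.7%) shared signs. Taken by arm, 21.8% of these genes were higher and 33.9% lower in both Sirt1 KO pairs, and 36.2% were higher in both resveratrol pairs.

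Shared direction was found for 63 genes (0.539%) at the same size, 56 of them higher in both arms (0.479%) and 7 lower in both (0.0599%). Me1, the malic enzyme that makes NADPH, passed in both arms with the same sign. It read 0.26 and 1.10 in WT, 1.33 and 1.93 in Sirt1 KO, 1.85 and 1.75 in DMSO and 2.57 and 2.75 in resveratrol. The groups did not overlap in either arm, and Me1 rose by 0.95 (SE 0.13; limma, adjusted p = 0.0416) and by 0.86 (SE 0.13; adjusted p = 0.0412). The difference of differences was 0.09 (SE 0.18; adjusted p = 0.882), which does not show that the 2 rises are alike.

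Pdlim4, a PDZ and LIM domain protein of the actin cytoskeleton, read 2.28 and 2.55 in WT, 3.55 and 5.08 in Sirt1 KO, 3.30 and 4.70 in DMSO and 4.37 and 6.39 in resveratrol. It was higher in both pairs of each arm, by 1.90 (limma, adjusted p = 0.0424) and 1.38 (adjusted p = 0.0749). Scx, the basic helix-loop-helix factor of tendon and connective tissue, differed by 1.61 (adjusted p = 0.0286) and 1.07 (adjusted p = 0.0717). Ugt1a6b, a glucuronosyltransferase of xenobiotic metabolism that shares exons with its neighbours, differed by 1.10 (adjusted p = 0.147) and 2.08 (adjusted p = 0.0281). In each of these 3 genes 1 arm passed.

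The vesicle GTPase Rab3d differed by 1.03 and 1.06, but its second probe, not detected throughout, gave -0.36 and -0.29. The metalloproteinase inhibitor Timp1 differed by 1.11 and 1.03, and neither gene passed in either arm. The Timp1 pairs in Sirt1 KO were unequal, at 0.18 and 2.03, and its second probe had a difference of differences of -0.53 against 0.07. With normexp on median signals the Sirt1 KO difference of Ugt1a6b (-0.18) and Rab3d (-0.12) turned negative. Of the genes lower in both arms, Neto1, a kainate receptor accessory protein, differed by -0.65 and -0.72, Trim67, a tripartite motif protein of neurons, by -0.67 and -0.70, Pcdh15, a cadherin, by -0.66 and -0.93, Vstm2b by -0.68 and -1.74, and Gcm2, a transcription factor of the parathyroid, by -0.64 and -1.18. None of these 5 genes passed in either arm (limma, smallest adjusted p = 0.0808).

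**Figure D3:**
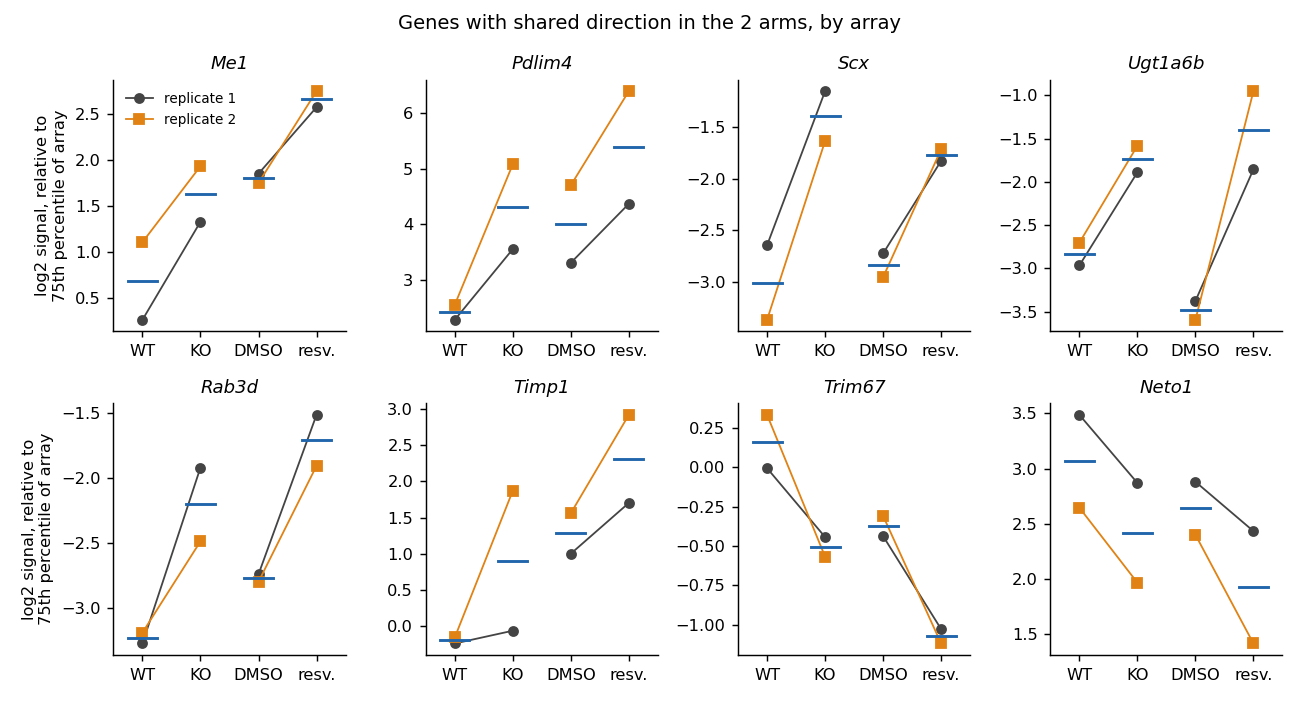
Levels (y, log2 signal relative to the 75th percentile of the array) of 8 genes with shared direction, by group (x), with lines joining arrays of 1 replicate number within an arm and blue bars at the mean of 2 arrays. For the probes shown, Me1, Pdlim4, Scx, Ugt1a6b, Rab3d and Timp1 go up in both arms, and Trim67 and Neto1 go down in both.

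A choice made in 1 replicate was read in the other. In replicate 1, 31 genes were higher in Sirt1 KO and lower after resveratrol by at least 1.5-fold in each arm. In replicate 2, 22 of them (71.0%) had the same signs, against 19.2% of all genes. The 1.5-fold class was kept by 10 (32.3%, against 0.317%). Of 44 genes with the reverse pattern, 26 (59.1%, against 29.6%) kept their signs and 8 (18.2%, against 0.437%) their class. Of 37 genes higher in both arms, 27 (73.0%, against 25.8%) kept their signs and 12 (32.4%, against 1.11%) their class. From replicate 2 to replicate 1 the signs were kept by 20 of 37 genes higher in Sirt1 KO and lower after resveratrol (54.1%, against 23.1%). The class was kept by 10 (27.0%, against 0.265%). For the reverse pattern it was 31 of 51 (60.8%, against 27.9%) and 8 (15.7%, against 0.377%). For genes higher in both arms it was 80 of 130 (61.5%, against 19.8%) and 12 (9.23%, against 0.317%). The genes that kept their class are the same in both directions, since that needs the class in both replicates. The second count of them is therefore not a further result. The shares over all genes include many that differed little: 3.24% to 10.8% of genes reached 1.5-fold in a single pair. Of genes lower in both arms, 0 of 13 chosen in replicate 1 and 0 of 38 chosen in replicate 2 kept their class, and 30.8% and 63.2% kept their signs, against 25.4% and 29.2% of all genes. Across 11681 genes the correlation of the arm means was 0.081, a description over genes that are not independent replicates. The difference of differences correlated at 0.334 between replicates, Sirt1 KO minus WT at 0.222 and resveratrol minus DMSO at 0.625.

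Of 29 NRF2 antioxidant genes, 10 passed after resveratrol (0.534% of all genes) and 1, Me1, in Sirt1 KO (0.361%). Srxn1, which repairs oxidised peroxiredoxins, read 0.61 and 1.28 in WT, 0.47 and 1.26 in Sirt1 KO, 0.89 and 1.33 in DMSO and 2.57 and 4.16 in resveratrol. Each WT array lay close to the Sirt1 KO array of its number and the resveratrol arrays stood above all others, with differences of -0.07 and 2.25 and a difference of differences of -2.33 (SE 0.33; limma, adjusted p = 0.0411). G6pdx, the first enzyme of the pentose phosphate pathway, differed by -0.25 in Sirt1 KO and rose by 0.86 after resveratrol (adjusted p = 0.0281), a difference of -1.11 (SE 0.16; adjusted p = 0.0428). All 29 listed genes were measured, with medians of 0.07 and 0.76; 2 passed, and 0 were positive and 18 negative at an unadjusted p under 0.05 (all genes: 4.36% and 7.67%).

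In the NRF2 list 7 of 29 were lower in Sirt1 KO and higher after resveratrol (11.1% of all genes), and 9 were higher in both arms (9.39%). The 3 that reached 1.5-fold in both arms were Me1, the cystine transporter Slc7a11 (0.65 and 0.76) and the glutathione transferase Gsta4 (0.84 and 1.26). Osgin1, an oxidative stress-induced growth inhibitor, and the oxidase Aox1 rose after resveratrol by 2.45 and 2.31 (limma, adjusted p = 0.0281 each), while their Sirt1 KO pairs had opposite signs, -0.58 and 0.41 for Osgin1 and 0.84 and -0.48 for Aox1. Their differences of differences did not pass (adjusted p = 0.0829 and 0.113).

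For p53 targets, a pathway with SIRT1 as a known deacetylase, all 27 listed genes were measured, with medians of -0.01 in Sirt1 KO and 0.48 after resveratrol. Of these genes 0 passed for the difference of differences, and 15 were negative and 0 positive at an unadjusted p under 0.05 (all genes: 7.67% and 4.36%). Cdkn1a, the cell cycle inhibitor p21, read 4.20 and 4.71 in WT, 3.5 and 4.88 in Sirt1 KO, 3.21 and 4.02 in DMSO and 4.18 and 5.33 in resveratrol. The Sirt1 KO pairs disagreed in sign, both resveratrol pairs were positive, and the difference of differences was -1.40 (SE 0.27; limma, adjusted p = 0.102). Pmaip1, the apoptosis gene Noxa, had -1.27 (SE 0.35; adjusted p = 0.197). Perp, a junction protein induced by p53, was higher in both arms, by 1.01 and 2.28 (adjusted p = 0.26 and 0.0417).

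Interferon response genes, 21 of 29 measured, had medians of -0.05 and 0.64, and 0 passed for the difference of differences, with 6 negative and 0 positive at an unadjusted p under 0.05 (all genes: 7.67% and 4.36%). Xaf1 rested on 1 array: it read -3.84 and -3.21 in WT, -3.71 and -3.26 in Sirt1 KO, -3.42 and -3.25 in DMSO and -3.57 and -0.14 in resveratrol. Rsad2, the antiviral enzyme viperin, had -1.14 (SE 0.28; limma, adjusted p = 0.166), and the transcription factor Irf1 had -0.95 (SE 0.20; adjusted p = 0.115). Of 18 microglia and macrophage genes 5 were measured, with medians of -0.22 and 0.22, and 0 passed. Cd14, Csf1r and Fcer1g, 3 of the 5, were lower in Sirt1 KO and higher after resveratrol in all pairs (11.1% of all genes). Their differences of differences were -1.23, -0.79 and -0.45 (limma, adjusted p = 0.236, 0.546 and 0.586). Another 1 of the 5 was lower in both resveratrol pairs (33% of all genes). The part of such cells in the interferon values was not tested.

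Hypoxia and glycolysis genes had medians apart in the other direction, with 31 of 32 measured and medians of 0.49 in Sirt1 KO and 0.09 after resveratrol. The 2 genes that passed were Slc16a3 and Aldoc; 13 were positive and 0 negative at an unadjusted p under 0.05 (all genes: 4.36% and 7.67%). Slc16a3 read 1.02 and -2.74 in WT, 3.02 and -0.50 in Sirt1 KO, 3.92 and 1.17 in DMSO and 4.44 and 1.09 in resveratrol. Replicate 1 was far above replicate 2 in every group, the Sirt1 KO pairs gave 2.00 and 2.24, and the difference of differences was 1.90 (SE 0.23; limma, adjusted p = 0.0233).

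Of 30 members detected throughout, 11 were higher in both arms (9.39% of all genes) and 1 had opposite signs (17.1%). The list's median after resveratrol was 0.27 in replicate 1 and -0.08 in replicate 2. Eno2, the neuronal enolase, was higher by 4.04 and 1.13 in the Sirt1 KO pairs and by 0.83 and 1.06 in the resveratrol pairs, but its second probe, not detected throughout, gave -0.26 after resveratrol. Vegfa, the angiogenic factor induced by hypoxia, read 3.82 and -0.22 in WT, 5.55 and 0.91 in Sirt1 KO, 5.61 and 2.30 in DMSO and 5.73 and 1.02 in resveratrol. Its replicates were split like those of Slc16a3, and it had a difference of differences of 2.01 (SE 0.41; limma, adjusted p = 0.109).

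Cell cycle genes had medians below that of all genes in both arms. The mitosis list, 29 of 30 measured, had medians of -0.44 and -0.14, and 20 of 29 members were lower in all pairs of both arms (12.3% of all genes). The DNA replication list, 30 of 32 measured, had -0.37 and -0.11, and 10 of 30 were lower throughout. At an unadjusted p under 0.05, 7 mitosis and 5 replication genes had a negative difference of differences (7.67% of all genes) and 0 a positive one (4.36%), and 0 passed in either list. Cdc20, an activator of the anaphase-promoting complex, differed by -0.50 and 0.15, the kinesin Kif20a by -0.53 and 0.04, and the checkpoint protein Mad2l1 by -0.72 and -0.17. Gins3, part of the replicative helicase, had -0.59 and 0.01, thymidine kinase Tk1 -0.54 and -0.05 and the ribonucleotide reductase subunit Rrm1 -0.48 and -0.04. The median difference of differences, -0.29 in both lists, was -0.03 for mitosis and 0.02 for replication genes with normexp on median signals.

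Cholesterol synthesis genes, 24 of 25 measured, had medians of -0.13 and -0.18, and 11 of 24 were lower in both arms (12.3% of all genes). Lss, Nsdhl and Insig1, a pair of sterol enzymes and a sterol sensor partner, had differences of differences of 0.70, 0.63 and -0.58 (limma, adjusted p = 0.417, 0.372 and 0.24). The list's Sirt1 KO median was 0.10 with normexp on median signals. Extracellular matrix genes, 31 of 41 measured, had medians of 0.23 and 0.31, and 11 of 26 detected throughout were higher in both arms (9.39% of all genes). Timp3 was the matrix gene that passed, with levels of 3.97 and 3.45 in WT, 4.53 and 4.00 in Sirt1 KO, 3.58 and 2.77 in DMSO and 3.01 and 2.33 in resveratrol. Col18a1 (-1.98; adjusted p = 0.158) and the gelatinase Mmp2 (-1.82; adjusted p = 0.206) did not pass.

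Of the partners of SIRT1, its substrates and the other sirtuins, 28 of 28 were measured, with medians of -0.03 and 0.02, and 0 passed. Ppara, Foxo1 and Rela had differences of differences of 0.71, -0.40 and -0.30 (limma, adjusted p = 0.422, 0.383 and 0.481). NAD synthesis and consumption genes, 13 of 20 measured, had medians of -0.01 and 0.12, and 0 passed. Nmnat2, Naprt and Nmnat3, enzymes of NAD synthesis, had -0.48, -0.37 and 0.29, and the second Nmnat2 probe had 0.34.

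Neural stem and progenitor genes, 24 of 25 measured, had medians of 0.08 and -0.05, and Hes5 alone passed. At an unadjusted p under 0.05, 6 were positive and 2 negative (all genes: 4.36% and 7.67%). The transcriptional inhibitors Id4 and Id3, targets of BMP signalling, were higher in both Sirt1 KO pairs and lower in both resveratrol pairs. Their differences of differences were 1.51 (SE 0.30; limma, adjusted p = 0.106) and 0.92 (SE 0.19; adjusted p = 0.109). Among 20 of 30 BMP and TGF-beta genes measured, the medians were 0.22 and -0.01. At an unadjusted p under 0.05, 7 were positive and 3 negative (all genes: 4.36% and 7.67%). Skil, an inhibitor of SMAD signalling, had 0.97 (adjusted p = 0.106). The list's Sirt1 KO median was -0.12 with normexp on median signals. The 14 other lists had median differences of differences between -0.40 and 0.26, and 0 of their members passed.

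**Figure D4:**
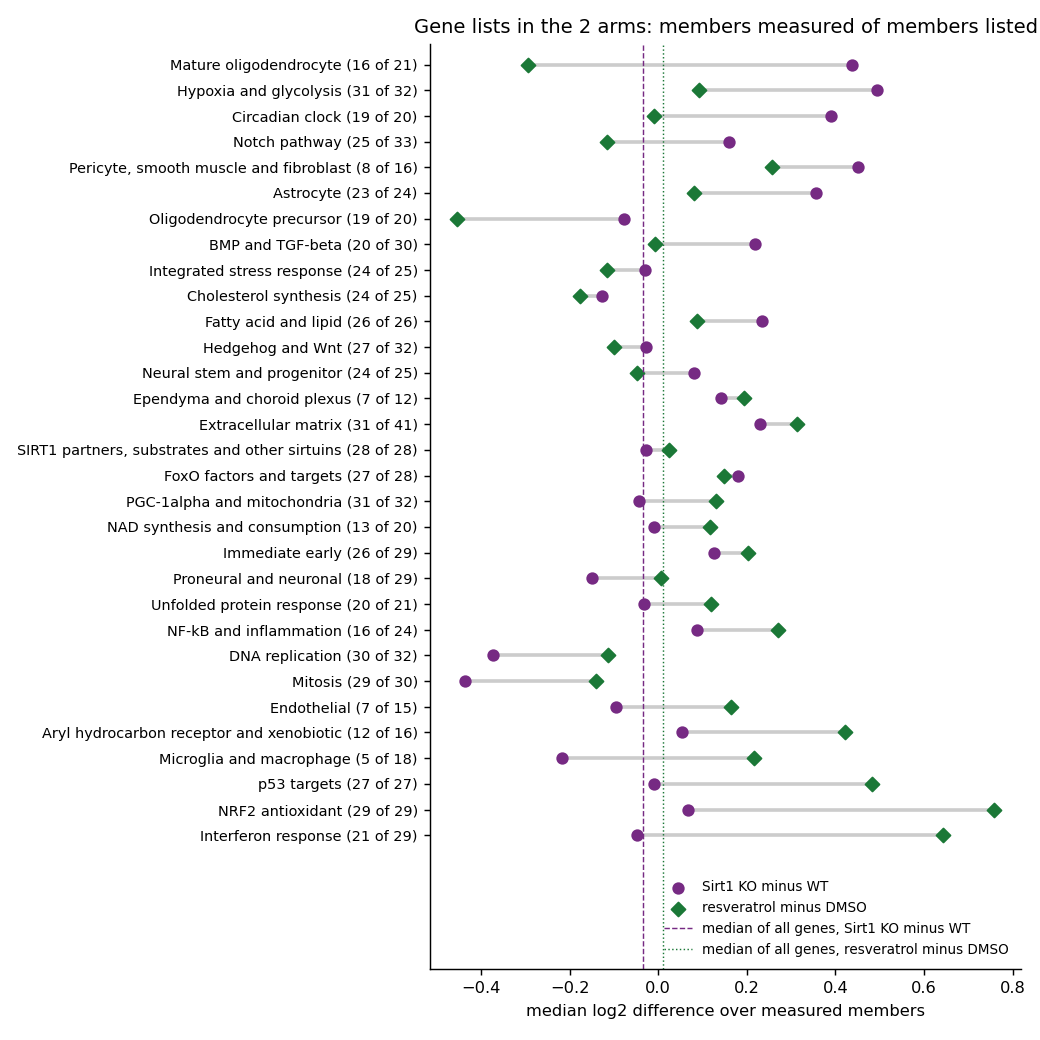
Median log2 difference (x) over the measured members of 31 gene lists (y, with members measured of members listed in brackets) in Sirt1 KO minus WT (purple circles) and resveratrol minus DMSO (green diamonds), ordered by the median difference of differences, with dashed and dotted lines at the medians of all genes. Interferon, NRF2 and p53 genes, at the bottom, have median differences of differences of -0.64, -0.58 and -0.56, and mature oligodendrocyte and glycolysis genes, at the top, 0.54 and 0.43.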

How the data were processed

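RNA of 8 neurosphere samples, 2 per group, was hybridised as 1 colour (Cy3) to Agilent arrays. Per the file headers the authors extracted intensity values with Feature Extraction 10.7.3.1 (10.7 per the submitters' processing notes), and the processed signal is background-corrected; no probe was saturated. The authors' deposited table holds log2 values, with normalization not given in the sources used here, and served as an alternative. Here log2 of the processed signal was centred on the 75th percentile of each array. Of 41072 probes, 26846 carried a RefSeq symbol. Of the same 41072, with or without a symbol, 26282 were detected well above background in 1 or more whole groups. Probes that met both conditions were reduced to 1 probe per gene, for 13306 genes.

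limma 3.58.1 in R 4.3.3 fitted 4 groups with a block for the replicate number in each arm (2 residual degrees of freedom, median prior 6.04) and an intensity trend. Tests were two-sided, with Benjamini-Hochberg adjustment over all genes. The block follows from taking differences within replicate numbers, which mark sex in the genotype arm and slide in the treatment arm. Deviations of same-numbered arrays from group means correlated at 0.736 (WT, Sirt1 KO) and 0.834 (DMSO, resveratrol), and also across arms at 0.596 (WT, DMSO). WT 1, DMSO 1 and resveratrol 1 shared a slide, as did Sirt1 KO 1, DMSO 2 and resveratrol 2, and WT 2 and Sirt1 KO 2, which were scanned on another day than all other arrays.

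Genes were named by rule: the 5 of each sign class with the largest smaller difference of the arms, the 5 largest positive and negative differences of differences past the test, the 2 largest each way past the test but dim in a group, up to 4 members per described list by size of the difference of differences, and Sirt1. Other genes that passed, or that fell in a 1.5-fold class, were named after their values were seen. 1 gene that met this rule is not reported here. The members and lists were chosen with earlier results of these data known. Alternatives covered background, normalization, block, filter, probe choice, trend and leaving out each array.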

Additional observations from a re-analysis of the deposited data

Results flagged for a closer look

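In the genotype arm replicate 1 was the female pair and replicate 2 the male pair, and 12 of 72 named genes (16.7%) had Sirt1 KO minus WT of opposite sign in them, against 43.8% of all 13306 genes. Part of the naming rule asks for the same sign in both pairs. With 1 pair per sex the difference was not tested, and sex cannot be told apart from slide, scan day and replicate. The difference, female pair minus male pair on the log2 scale, was 1.33 for Aox1 (0.84 and -0.48) and 1.32 for Gjc3 (1.03 and -0.28). It was -1.75 for Mmp2 (-1.54 and 0.21), -0.99 for Osgin1 (-0.58 and 0.41), -0.96 for Pmaip1 (-0.44 and 0.52) and -0.87 for Cdkn1a (-0.70 and 0.17). Smaller values were -0.59 for Nsdhl, -0.56 for Col18a1, -0.49 for Lss, 0.49 for Sirt1, 0.18 for Xaf1 and 0.088 for Rsad2.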

How the results depend on the processing

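The count of genes that passed for the difference of differences (42) was 18 with quantile normalization, 23 with the authors' log2 values, 6 without a filter on dim probes, 97 with probes detected on all 8 arrays only, 12 with probes of a gene averaged and 0 without the intensity trend (1331 at an unadjusted p under 0.05). With no replicate block it was 0 (126 unadjusted), with a block shared by the arms 1 and with the slide as a block 0 (948). In Sirt1 KO against WT (48) the same settings gave 18, 25, 0, 110, 18, 0, 0, 0 and 0, and in resveratrol against DMSO (71) they gave 34, 33, 0, 191, 12, 1, 0, 0 and 0. Where these arms had 0 by limma, the count at an unadjusted p under 0.05 was 2031 (no filter), 1553 (no trend), 159 (no block), 1278 (shared block) and 1234 (slide) in Sirt1 KO, and 1994 (no filter), 202, 1412 and 606 after resveratrol in the same order. The cause was not tested. Normexp on median signals, chosen after seeing the data because the mean signal planned was not used here, gave 2807 (491 positive, 2316 negative) and, in Sirt1 KO, 4299 (1053 higher, 3246 lower). Normexp with 1 background per array, also chosen after seeing the data, gave 27 and 11. Normexp on mean signals was not run.

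Opposite genes (46) were 22 with 1 background per array, 2001 by sign alone, 8 at 2-fold and 89 with the probe filter of the fit. Normexp on median signals split them 14 higher in Sirt1 KO and 41 lower. Shared genes (63) were 18 with either normexp, 2530 by sign alone, 6 at 2-fold and 131 with the probe filter of the fit. Leaving out an array removes its pair, and the lone pair left is assumed to vary like the other arm. The count for the difference of differences then ran from 15 to 798 (15 without DMSO 2, 16 without resveratrol 2, 798 without Sirt1 KO 2), that for Sirt1 KO from 86 to 750, that for resveratrol from 3 to 1089, opposite genes from 44 to 83 and shared genes from 40 to 101.

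Of 340 values for the 18 named genes that passed, 0 changed direction. With no block, a shared block, no trend or another probe filter, the value was the main one and its direction could not change. Leaving out either array of a pair gave the same value. The number past the threshold was 8 with quantile normalization, 11 with the authors' values, 16 with normexp on median signals and 11 with 1 background. It was 5 without a filter on dim probes, 16 of 16 with probes detected on all arrays and 8 with probes averaged. It was 1 with a block shared by the arms and 0 with no block, the slide as a block or no trend. Without DMSO 2, 9 of 18 passed, with Pf4, Itga8, AI593442, Cda, Cd82, Has2, Fgfr3, Slc16a3 and Timp3 lost, and without resveratrol 2, 10. Hes5 ranged from 3.07 to 3.86. The Sirt1 KO median of the precursor list was 0.10 and that of NRF2 genes -0.16 with the slide as a block. Dim replicate 2 arrays limit low-signal genes.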
